A study of Mus musculus with 12 samples.

Results

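CD8+ tumor-infiltrating lymphocytes (TILs) were compared with splenic CX3CR1+ CD8+ T cells from the same mice by sequencing of the TCRβ chain. The comparison took the 3 libraries labelled as CD8 TILs and the 3 labelled as splenic CX3CR1hi cells, 6 of the 12 libraries in the series, and set them against each other within each experiment. All libraries came from female C57BL/6 mice aged 7 to 10 weeks that carried MC38 tumors, a transplanted mouse colon adenocarcinoma, and all mice had received anti-CTLA-4 Ab (100 µg) and anti-PD-L1 Ab (200 µg). Cells were taken 2 weeks after the start of treatment, and each of the 3 experiments, called A, B and C here, pooled 10 mice, so a library describes a pool and not an animal. No untreated library was among those compared. Splenic cells were sorted as CD45+ CD3+ CD8+ CX3CR1+ cells, whereas TILs were enriched with CD8a beads and not sorted by CX3CR1. The assay read genomic DNA, which holds no marker transcripts, so the sort labels could not be checked against expression. The other 6 libraries, splenic CD27lo CX3CR1lo and CD27hi CX3CR1lo CD8+ T cells of the same experiments, served only as a reference.

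Each T cell builds its TCRβ gene by joining a V, a D and a J segment, with bases added without a template at the joints (N insertions). The joined stretch, the third complementarity-determining region (CDR3), contacts the peptide presented by MHC. Its nucleotide sequence is taken here to mark a clone, which in a pool of mice need not descend from a single cell. CX3CR1, the receptor for fractalkine, is carried by CD8+ T cells that have gone through effector differentiation.

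The TIL libraries held 5893, 12388 and 20951 productive templates (estimated input DNA molecules with an in-frame rearrangement) in experiments A, B and C. The CX3CR1+ libraries held 55776, 50994 and 113660. These templates fell into 1359, 1550 and 2173 unique productive rearrangements in TILs and 7153, 5591 and 11455 in CX3CR1+ cells. The spleen was therefore the more deeply sampled side in every experiment. A clone with 0 templates could still hold up to 0.0509% of templates in TIL library A and up to 0.00264% in spleen library C, the limits that a count of 0 allows.

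Most TIL templates belonged to clones with a higher share in TILs than in CX3CR1+ cells, and most CX3CR1+ templates to clones with a higher share in spleen. Clones were sorted into these classes by the same template counts, so part of this split follows from the sorting. The following CDR3 sequences are those of the 2 most abundant clones among those higher in TILs (T) and the 2 most abundant among those higher in spleen (S) in each experiment. They run 5′ to 3′ from the conserved cysteine codon, with N-inserted bases in capitals. The deposited 87-base reads end 1 codon before the end of the CDR3, so the closing phenylalanine codon is not shown.
A-T1: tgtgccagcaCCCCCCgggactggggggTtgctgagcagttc
A-T2: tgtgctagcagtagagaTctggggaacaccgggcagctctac
A-S1: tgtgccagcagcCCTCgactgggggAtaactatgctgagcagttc
A-S2: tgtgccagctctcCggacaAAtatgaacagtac
B-T1: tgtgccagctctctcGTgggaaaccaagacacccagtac
B-T2: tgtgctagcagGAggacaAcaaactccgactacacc
B-S1: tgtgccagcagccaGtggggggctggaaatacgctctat
B-S2: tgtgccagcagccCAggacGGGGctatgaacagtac
C-T1: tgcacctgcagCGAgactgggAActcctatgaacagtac
C-T2: tgtgccagcagtggggggAGGcagtac
C-S1: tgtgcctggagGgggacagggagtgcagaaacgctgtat
C-S2: tgtgccagcagCAacagggTtgaacagtac

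A clone was called higher on a side when Fisher's exact test on its templates, adjusted by Benjamini-Hochberg within the experiment, fell under 0.05. Only clones with at least 10 templates in both libraries together were tested. In experiment A, 69 of 636 tested clones (10.8%) were higher in TILs and 132 (20.8%) were higher in spleen. In experiment B, 126 of 591 clones (21.3%) were higher in TILs and 199 (33.7%) in spleen, and in experiment C the counts were 166 (14.8%) and 308 (27.5%) of 1122. The excess of spleen-higher clones depended on depth. With the spleen library drawn down to the depth of the TIL library, the median counts were 53 and 81 in A, 107 and 115 in B, and 141 and 213 in C. These tests compare 2 libraries of 1 experiment with counting error only, so they describe the pools and not the tissues at large. A CDR3 nucleotide sequence was not always confined to an experiment. That of A-T2 was also found in experiment C, with 3 TIL and 29 CX3CR1+ templates. TIL-higher clones held 56.2%, 72.3% and 71.2% of TIL templates in the 3 experiments, in the same order, but 4.66%, 11.2% and 11.7% of CX3CR1+ templates. Spleen-higher clones held 51.7%, 60.7% and 56.6% of CX3CR1+ templates and 1.58%, 5.33% and 8.22% of TIL templates. Tested clones that were not called held 10.1%, 6.53% and 9.65% of TIL templates.

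**Figure D1:**
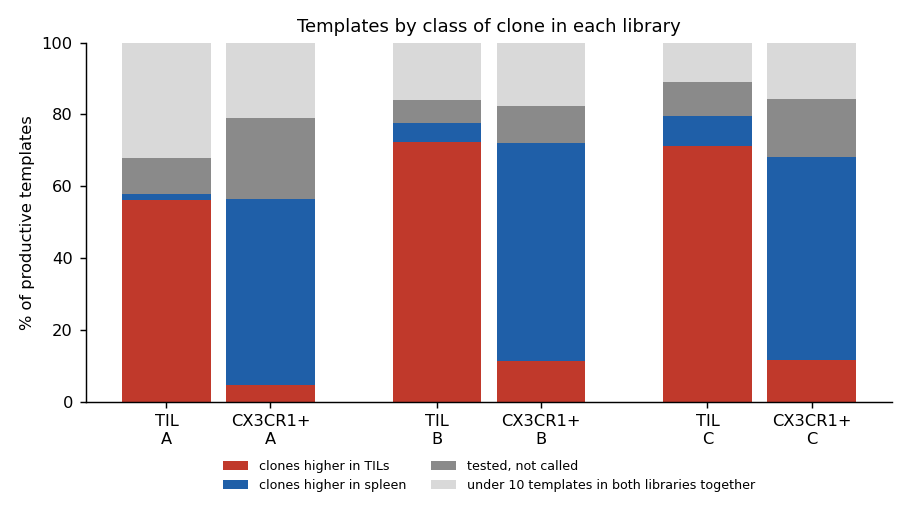
Stacked bars give the percent of productive templates in each of the 6 libraries that belonged to clones called higher in TILs (red), called higher in spleen (blue), tested but not called (dark grey), or with under 10 templates in both libraries together (light grey). In all 3 experiments the red part filled over 56% of the TIL bar and under 12% of the CX3CR1+ bar. The classes were called from these same templates, so part of this contrast follows from the calls.

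Sharing of clones was nonetheless wide by template. TIL clones that were also seen among splenic CX3CR1+ cells numbered 276 of 1359 in experiment A, 590 of 1550 in B and 1009 of 2173 in C, and held 63.9%, 85.6% and 85.8% of TIL templates. In the other direction the shared clones held 22.4%, 54.1% and 70.9% of CX3CR1+ templates. With both libraries drawn down to 5000 templates, the shared clones held 56.9%, 75.0% and 73.5% of TIL templates and 22.1%, 50.8% and 59.5% of CX3CR1+ templates. The TIL side exceeded the spleen side in all 3 experiments before and after this draw. Of the clones at or above 0.1% of TIL templates, 72 of 115, 112 of 128 and 123 of 131 were seen in spleen. Of those at or above 0.1% of CX3CR1+ templates, 41 of 143, 69 of 126 and 128 of 144 were seen in TILs. Experiment A stood apart with the lowest sharing in each of these counts, before and after the draw. Its TIL library was the shallowest at full depth. The reason for its low sharing was not tested.

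The frequency ratio of tumor to spleen varied widely among the clones found on both sides. The 10th and 90th percentiles of the ratio were 0.505 and 18.9 in experiment A, 0.335 and 12.3 in B, and 0.186 and 10.8 in C. Pearson's r of the log shares was 0.55, 0.59 and 0.54 over 276, 590 and 1009 clones, a description over clones that share their 2 libraries and their sampling depth. A clone entered only with at least 1 template in both libraries, and the TIL library was the shallower one.

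**Figure D2:**
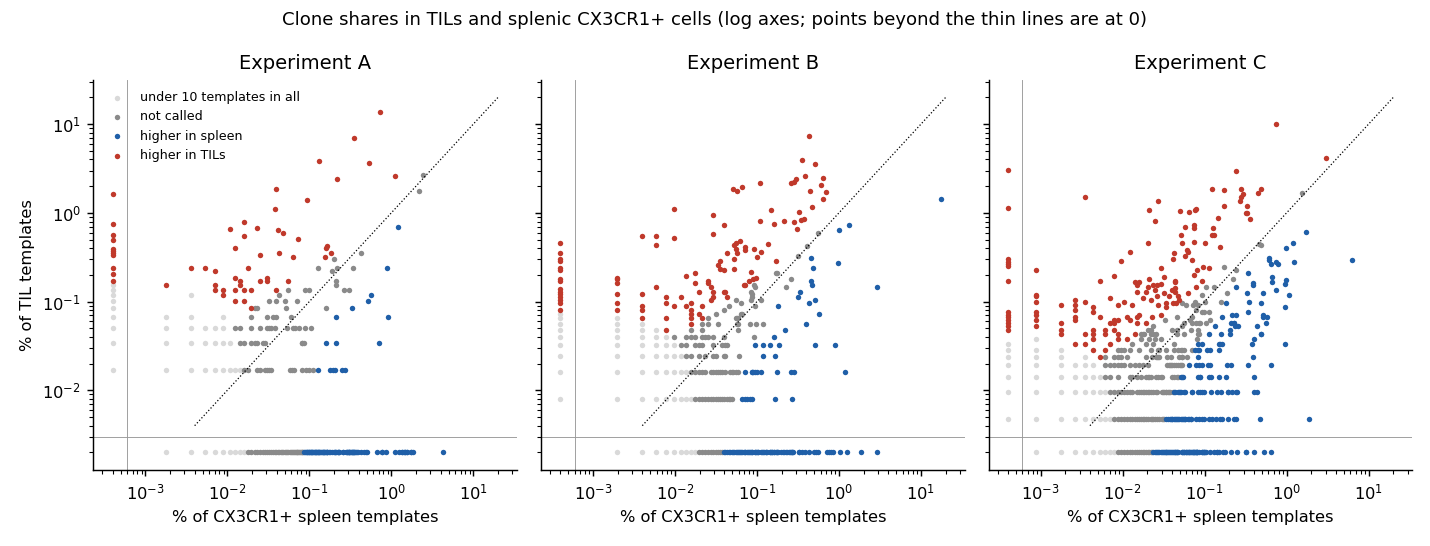
Each point is a clone, or several clones with the same counts, placed by its percent of CX3CR1+ spleen templates (horizontal, log axis) and of TIL templates (vertical, log axis), with points beyond the thin lines at 0 on that axis. Clones over 1% of either library lie far from the dotted line of equal shares in many cases, as for the A clone at 13.6% of TIL templates and 0.724% of spleen templates.

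The leading TIL-higher clones were present, but at a lower share, in spleen. A-T1, which used TCRBV19-01 and TCRBJ02-01, took 13.6% of TIL templates (Wilson 95% interval 12.7 to 14.5) and 0.724% of CX3CR1+ templates (0.657 to 0.798). Its ratio was 18.8 (exact 95% interval 16.6 to 21.2), and these intervals and those below cover counting error only. A-T2 (TCRBV17-01, TCRBJ02-02) took 7.08% and 0.348%, a ratio of 20.3 (17.1 to 24.2). B-T1, whose protein sequence is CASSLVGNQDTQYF, took 7.43% of TIL templates and 0.433% of CX3CR1+ templates, a ratio of 17.2 (14.8 to 19.96). B-T2 (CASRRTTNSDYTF) took 3.99% and 0.359%, a ratio of 11.1 (9.36 to 13.2). C-T1 (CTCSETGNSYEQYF) took 9.98% and 0.746%, a ratio of 13.4 (12.3 to 14.5). C-T2 (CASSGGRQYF) was abundant on both sides, at 4.16% and 3.03%, a ratio of 1.37 (1.27 to 1.48). The fold was above 10 for 5 of these 6 clones. They were picked by their call and their TIL share, so a high ratio was partly built into the choice. The same holds for the spleen-higher clones below.

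C-T2 had a close relative. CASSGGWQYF, the clone of rank 3 among those higher in TILs in experiment C, took 3.05% of TIL templates (639) and had 0 of 113660 templates in the CX3CR1+ library, at least 1156-fold higher in TILs against a floor of 3 templates. Both used TCRBV13-01, both lacked a J gene name in the files, and their printed sequences of 27 bases were tgtgccagcagtggggggAGGcagtac and tgtgccagcagtggggggTGGcagtac.

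Several leading CX3CR1+ clones were absent from the TIL library or nearly so. A-S1, with TCRBV03-01 and TCRBJ02-01, took 4.22% of CX3CR1+ templates and had 0 TIL templates, at least 83.0-fold higher in spleen against the floor. A-S2 (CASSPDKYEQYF) took 1.83% of spleen templates and had 0 in TILs, at least 35.9-fold higher in spleen. B-S2 (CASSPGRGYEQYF) took 2.92% with 0 in TILs, at least 120-fold higher. C-S2 (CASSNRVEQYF) took 1.87% of CX3CR1+ templates and 1 TIL template. B-S1 (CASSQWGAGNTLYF, TCRBJ01-03), the largest clone of any of the 6 libraries, took 17.5% of CX3CR1+ templates and 1.44% of TIL templates, 12.1-fold (10.5 to 14.2) higher in spleen. C-S1 (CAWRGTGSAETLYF, TCRBV31-01) took 6.33% and 0.291%, 21.7-fold (16.9 to 28.4) higher in spleen. In all, 116 of 132 spleen-higher clones in A, 155 of 199 in B and 153 of 308 in C had 0 TIL templates. Among TIL-higher clones, 21 of 69, 18 of 126 and 23 of 166 had 0 spleen templates. The TIL libraries were the shallower side, where a count of 0 is more easily reached, so these counts cannot be compared between the sides.

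The other clones named by the rule, of ranks 3 and 4 on each side, are given by their ratios. Those higher in TILs had ratios of 29.2 and 6.92 in A, 6.93 and 6.76 in B, and 12.2 for rank 4 in C. Those higher in spleen had 0 TIL templates for both in A and for rank 4 in B, and were 19.9-fold higher for rank 3 in B and 2.83-fold and 4.32-fold higher in C.

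A few clones held a similar, high share on both sides. The main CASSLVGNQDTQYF clone of experiment A took 2.68% of TIL templates and 2.46% of CX3CR1+ templates, a ratio of 1.09 (0.920 to 1.29, Fisher's exact test, adjusted p = 0.490). A clone with that protein sequence took 1.69% and 1.52% in experiment C, a ratio of 1.11 (0.986 to 1.24, adjusted p = 0.143). Summed over all clones with this protein, the shares were 2.68% of TIL and 2.48% of CX3CR1+ templates in A, 9.68% and 2.38% in B, and 3.52% and 2.27% in C, ratios of 1.08, 4.06 and 1.55.

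The segments used by the called clones were counted beside those of all tested clones. TCRBV19-01 with TCRBJ02-01 was used by 8 of 69, 7 of 126 and 19 of 166 TIL-higher clones, and by 2 of 132, 1 of 199 and 8 of 308 spleen-higher clones, against 25 of 636, 16 of 591 and 39 of 1122 tested clones (3.93%, 2.71% and 3.48%). TCRBJ01-03 was used by 1, 7 and 2 of the TIL-higher clones by 13, 25 and 31 of the spleen-higher clones, and by 50, 52 and 77 of the tested clones (7.86%, 8.80% and 6.86%). Of the TIL-higher clones, 30.4%, 23.0% and 22.9% had a CDR3 with the same V gene and length and at most 1 residue changed among the TIL-higher clones of the other experiments. The figure for spleen-higher clones was 14.4%, 13.6% and 9.74%, although more clones (507, 440 and 331 against 292, 235 and 195) were available to match. The share with such a near match was not counted over all tested clones, and the called classes differ in the segments they use. The difference between the classes therefore has no background to be read against. All these counts were made after the calls were known and were not tested.

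The V-J pair TCRBV19-01 with TCRBJ02-01 was the only 1 of 250 pairs (0.4%) called in TILs against CX3CR1+ cells by unique rearrangement. The genes lie on chromosome 6 of GRCm38 (mm10), Trbv19 at chr6:41178589-41179048 and Trbj2-1 at chr6:41542754-41542803. The pair made up 2.28%, 3.56% and 3.70% of unique TIL rearrangements in experiments A, B and C (31, 55 and 80 rearrangements), and 1.60%, 1.67% and 1.41% of unique CX3CR1+ rearrangements (114, 93 and 161). All TIL values were above all CX3CR1+ values, which held for 16 of the 250 pairs, while 18 had all TIL values below. The fitted difference was 1.07 ± 0.20 (SE) on the log2 scale, 2.10-fold, with an adjusted p of 4.21e-05 in edgeR's quasi-likelihood test with experiment as a block. The CD27lo CX3CR1lo and CD27hi CX3CR1lo libraries lay between 0.937% and 0.994%. DESeq2 called the pair as well (adjusted p = 0.00231), and 20 pairs had an unadjusted p under 0.05. The edgeR call was lost without experiment B (log2 difference 1.03, adjusted p = 0.264) and without experiment C (0.83, adjusted p = 0.703). It was also lost at an equal depth of 5893 templates per library (0.71, adjusted p = 0.775), where the TIL shares were 2.28%, 3.804% and 4.80% and the CX3CR1+ shares 2.33%, 1.93% and 2.25%, so that TILs were no longer the higher side in experiment A. Among out-of-frame rearrangements, which encode no receptor, the difference was 0.91 (adjusted p = 0.199), in the same direction and not called.

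Within this pair, TILs and CX3CR1+ cells shared a CDR3 type. The sequences below are 8 of its more abundant rearrangements of 14 residues with glycine at residue 6 and the ending YAEQFF. The first 3 came from experiment A, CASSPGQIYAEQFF and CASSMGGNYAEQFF from B and the rest from C. Both the pattern and the 8 were chosen after the sequences and values were seen, and nothing about them was tested.
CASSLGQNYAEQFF: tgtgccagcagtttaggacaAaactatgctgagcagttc
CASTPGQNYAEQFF: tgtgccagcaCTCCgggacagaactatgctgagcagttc
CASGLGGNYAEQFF: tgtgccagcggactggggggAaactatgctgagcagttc
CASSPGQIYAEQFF: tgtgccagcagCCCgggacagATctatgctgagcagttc
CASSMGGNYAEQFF: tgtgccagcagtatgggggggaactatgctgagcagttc
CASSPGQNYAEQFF: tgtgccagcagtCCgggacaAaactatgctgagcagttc
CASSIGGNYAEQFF: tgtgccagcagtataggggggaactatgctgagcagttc
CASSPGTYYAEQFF: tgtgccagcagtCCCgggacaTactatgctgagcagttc

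Sequences of this pattern made up 58.1%, 56.4% and 53.8% of the TCRBV19-01 TCRBJ02-01 rearrangements in TILs. In CX3CR1+ cells they made up 37.7%, 38.7% and 28.0%. Among the CX3CR1lo subsets the share ran from 10.7% to 23.8%. As a share of all unique rearrangements the pattern reached 1.32%, 2.00% and 1.98% in TILs, 0.601%, 0.644% and 0.393% in CX3CR1+ cells, 0.169%, 0.225% and 0.168% in CD27lo CX3CR1lo cells, and 0.117%, 0.118% and 0.106% in CD27hi CX3CR1lo cells. These shares depend on depth, and the CX3CR1lo libraries were not drawn down, so the order of the 4 groups mixes depth with population. At 5893 templates each, the TIL shares were 1.32%, 2.21% and 2.99% and the CX3CR1+ shares 1.09%, 0.973% and 1.07%. In experiment A both sides then held a mean of 18 such rearrangements. No support is drawn from these differences, since the pattern was chosen with the values known. The other TCRBV19-01 TCRBJ02-01 rearrangements averaged 1.40% ± 0.39 (SD, n = 3) of unique rearrangements in TILs and 1.01% ± 0.01 in CX3CR1+ cells. The pattern also occurred with other V genes, at 1.10%, 1.23% and 1.75% of unique rearrangements in TILs, 0.993%, 1.06% and 0.960% in CX3CR1+ cells and 0.595% to 0.767% in the CX3CR1lo libraries, again highest in TILs, so it was not particular to TCRBV19-01. TCRBV19-01 with any other J gene averaged 6.52% ± 0.67 and 6.71% ± 0.18.

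The overlap of these rearrangements between TILs and CX3CR1+ cells was counted within each experiment. In TILs of A, B and C, 18, 31 and 43 rearrangements had the pattern, of which 11, 18 and 26 were found in CX3CR1+ cells of the same experiment. Over all TIL clones the share found there was 20.3%, 38.1% and 46.4%. The experiment A rearrangement of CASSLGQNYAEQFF took 1.10% of TIL templates and 0.0377% of CX3CR1+ templates. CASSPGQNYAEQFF in experiment C had 2 main rearrangements that differed in their N-inserted bases and ran in opposite directions, the printed one at 1.499% of TIL templates and 0.278% of spleen templates, and another at 0.0668% and 0.583%. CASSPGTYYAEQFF was also lower in TILs, at 0.153% against 0.388%.

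**Figure D3:**
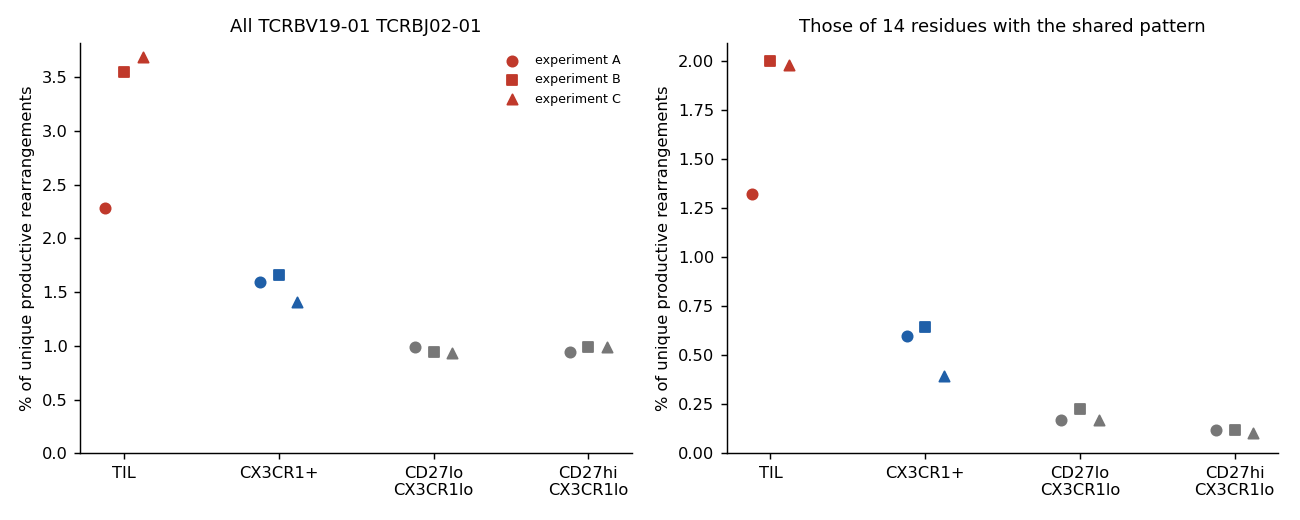
The left panel gives the percent of unique productive rearrangements that used TCRBV19-01 with TCRBJ02-01, and the right panel the percent with the 14-residue pattern in that pair, in each library (marker shape: experiment). At full depth, TIL libraries were highest in both panels, at 2.28% to 3.68% and 1.32% to 2.00%, and the CX3CR1+ libraries lay above both CX3CR1lo subsets. Percentages are of all productive rearrangements, whereas the test used those with both genes named.

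Other CDR3 types recurred among the abundant TIL clones. A-T2 encoded the same protein as a TIL-higher clone of experiment B that took 2.599% of TIL templates and 0.384% of CX3CR1+ templates, a ratio of 6.76 (5.64 to 8.12). In experiment C that protein was carried by 0.0143% of TIL templates and 0.0255% of CX3CR1+ templates. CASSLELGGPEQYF (TCRBV16-01, TCRBJ02-07) took 3.82% of TIL and 0.131% of CX3CR1+ templates in experiment A, a ratio of 29.2 (22.3 to 38.5). Its neighbour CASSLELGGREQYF, with a single changed residue, took 2.46% and 0.633% in its main rearrangement of experiment B, and 0.153% and 0.213% in that of experiment A. These 2 proteins were singled out after their values were seen.
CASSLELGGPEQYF: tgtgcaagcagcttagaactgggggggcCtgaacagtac
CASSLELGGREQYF: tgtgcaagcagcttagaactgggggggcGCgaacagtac

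By template, 3 of 12 J genes were called between TILs and CX3CR1+ cells. TCRBJ01-03, the only 1 of 12 J genes (8.33%) called higher in spleen, made up 1.95%, 6.37% and 2.12% of TIL templates and 8.36%, 27.5% and 8.88% of CX3CR1+ templates. The ratio was close to constant, 4.27-fold higher in spleen by the fit (log2 difference -2.09 ± 0.06 SE, edgeR adjusted p = 0.00034), although experiment B had the highest level on both sides. The CX3CR1lo subsets lay between 5.39% and 6.23%, under all 3 CX3CR1+ libraries. Trbj1-3 lies at chr6:41534323-41534372. In experiment B, B-S1 alone made up 17.5% of spleen templates. With the largest clone of each library left out, the difference was -1.58 (adjusted p = 0.00261), a setting chosen after seeing the data, under which TCRBJ02-01 stood at 0.54 (adjusted p = 0.0482) and TCRBJ02-02 at 0.60 without a call (adjusted p = 0.0912), so that 2 J genes were called. CX3CR1+ libraries had 3, 4 and 4 TCRBJ01-03 clones over 0.5% of templates, and TIL libraries had 0, 2 and 0. The J gene shares leave out C-T2 and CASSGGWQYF, which have no J gene name. In experiment C these held 4.16% and 3.05% of TIL templates and 3.03% and 0% of CX3CR1+ templates.

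TCRBJ02-01 and TCRBJ02-02 (2 of 12 J genes, 16.7%) were called higher in TILs. TCRBJ02-01 made up 30.7%, 11.5% and 24.3% of TIL templates against 18.1%, 6.69% and 17.4% of CX3CR1+ templates, a log2 difference of 0.68 ± 0.09 (SE, adjusted p = 0.0192). TCRBJ02-02 made up 10.4%, 4.26% and 6.95% against 7.21%, 2.85% and 4.51%, a difference of 0.58 ± 0.07 (adjusted p = 0.0152). The TIL and CX3CR1+ libraries overlapped for both genes, so these calls rest on the pairing by experiment. Much of the TCRBJ02-02 share in TILs came from 1 protein. A-T2 held 417 of the 615 TCRBJ02-02 templates of TILs in A, and a clone of the same protein 322 of 527 in B. In CX3CR1+ cells these clones held 194 of 4009 and 196 of 1455. Leaving out the largest clone of each library did not remove them, and the call was not tested without them. TCRBJ02-05 did not overlap, at 8.96%, 14.6% and 8.56% of TIL templates against 7.26%, 8.47% and 7.22% of CX3CR1+ templates. It was not called (log2 difference 0.44, edgeR adjusted p = 0.157). Without the replicate block no J gene was called (adjusted p = 0.198 for TCRBJ01-03 and 0.451 for the other two). Without experiment A or without experiment B, TCRBJ01-03 alone was called, and without experiment C TCRBJ02-02 was lost (adjusted p = 0.0522). Under TMM and in DESeq2, TCRBJ02-05 and TCRBJ02-07 were called higher in TILs as well, and TMM moved the median of all J genes by 0.42.

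**Figure D4:**
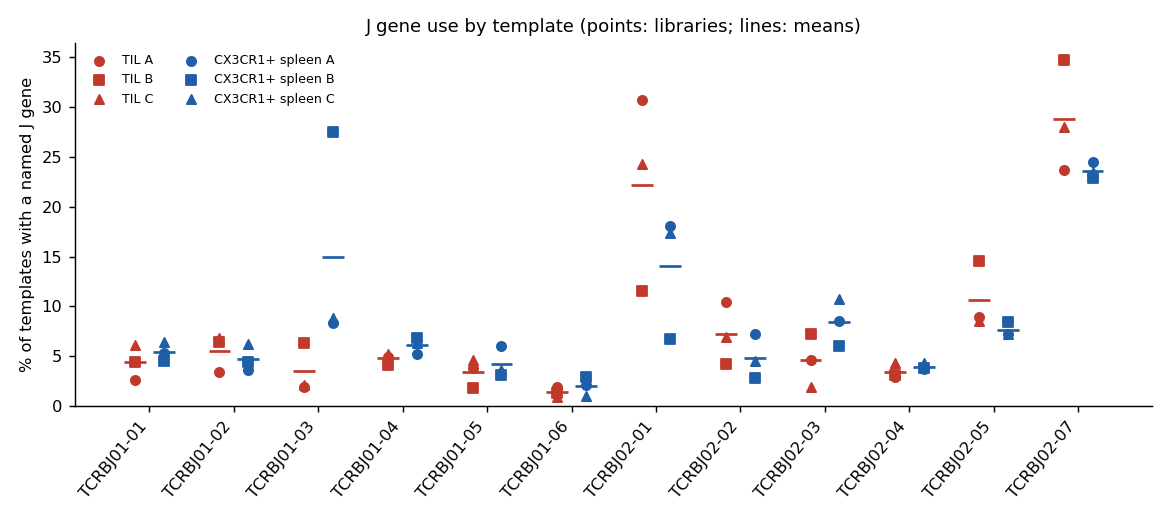
Points give the percent of templates with each of the 12 J genes in the TIL (red) and CX3CR1+ (blue) libraries, lines the means of 3. TCRBJ01-03 is the gene whose TIL points (1.95% to 6.37%) all lie under its CX3CR1+ points (8.36% to 27.5%), and TCRBJ02-01 shows the same order of experiments on both sides.

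By unique rearrangement, where each clone counts once, no J gene passed at full depth. TCRBJ01-03 made up 3.76%, 5.04% and 4.58% of unique TIL rearrangements and 5.03%, 5.80% and 5.87% of CX3CR1+ rearrangements, a log2 difference of -0.32 ± 0.13 (SE) that did not pass (edgeR adjusted p = 0.274). At an equal depth of 5893 templates it was called in 12 of 20 draws, with a median log2 difference of -0.52 and a median adjusted p of 0.0441, and TCRBJ01-06 was called in 10 of 20, higher in TILs by a median of 0.62. TCRBJ02-05 stood at 10.8%, 10.5% and 10.5% against 10.1%, 10.2% and 9.57%. By edgeR and by DESeq2, 0 of 12 J genes were called, with 1 at an unadjusted p under 0.05.

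V gene use did not differ past the threshold by either measure. By unique rearrangement 0 of 25 V genes were called by edgeR and by DESeq2, and 2 had an unadjusted p under 0.05. TCRBV12-01 made up 4.49%, 6.46% and 6.72% of unique TIL rearrangements and 7.40%, 7.50% and 8.20% of CX3CR1+ rearrangements, a log2 difference of -0.38 ± 0.13 (SE, adjusted p = 0.0954). By template the same gene stood at 5.91%, 13.6% and 9.39% in TILs and 6.79%, 7.93% and 7.35% in spleen, where B-T1 alone, which uses it, held 7.43% of TIL templates in B. TCRBV19-01 made up 9.20%, 9.30% and 10.6% of unique TIL rearrangements and 8.50%, 8.21% and 8.08% of CX3CR1+ rearrangements, with the CX3CR1lo subsets at 7.22% to 7.68% (difference 0.24 ± 0.11, adjusted p = 0.417). TCRBV30-01 was the least used of the genes named by the rule, at 0.092% to 0.323% in TILs and 0.253% to 0.340% in spleen. TCRBV13-03 (4.78%, 5.68% and 6.67% against 6.70%, 6.55% and 6.83%) and TCRBV31-01 (4.49%, 2.39% and 2.53% against 3.03%, 2.13% and 2.51%) kept a single direction in the 3 experiments with adjusted p of 0.525 and 0.657. By template 0 of 25 V genes were called by edgeR and by DESeq2, with 2 at an unadjusted p under 0.05.

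**Figure D5:**
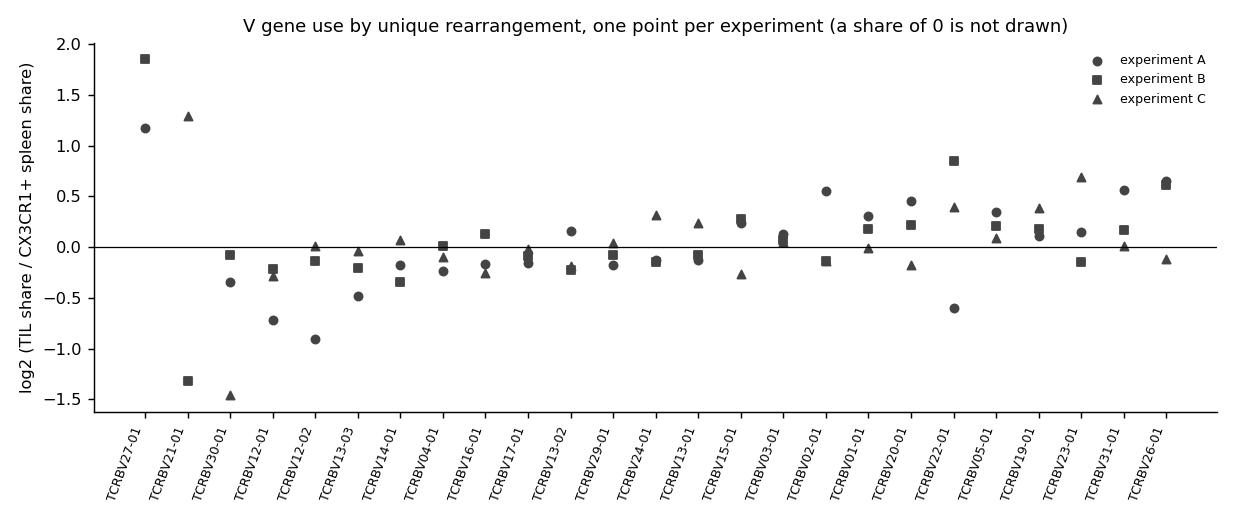
For each of 25 V genes, ordered by mean, points give the log2 ratio of the TIL share to the CX3CR1+ spleen share of unique rearrangements in each experiment, and 0 marks equal shares. TCRBV12-01 lies under 0 and TCRBV19-01 over 0 in all 3 experiments, and TCRBV30-01, with 2 to 5 TIL rearrangements, spreads widely.

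Other V-J pairs kept a direction without passing. Among those lower in TILs in all 3 experiments, TCRBV19-01 with TCRBJ01-03 had 1, 3 and 3 TIL rearrangements and 25, 24 and 42 in spleen (log2 difference -1.45 ± 0.51 SE, edgeR adjusted p = 0.277). Over all V genes, TCRBJ01-03 made up 3.76%, 5.04% and 4.58% of unique TIL rearrangements. With so few TIL rearrangements and no call, no contrast is drawn with the pair of TCRBV19-01 and TCRBJ02-01. For TCRBV12-01 the log2 difference was -1.17 ± 0.45 (SE) with TCRBJ01-03, -1.04 ± 0.40 with TCRBJ02-03 and -0.93 ± 0.36 with TCRBJ02-04, each with an adjusted p of 0.277, and for TCRBV13-01 with TCRBJ01-05 it was -0.67 ± 0.49 (adjusted p = 0.881). Among those higher, TCRBV31-01 with TCRBJ02-03 had 10, 4 and 9 TIL rearrangements and 17, 6 and 22 in spleen (1.33 ± 0.41, adjusted p = 0.136). The others named by the rule were TCRBV24-01 with TCRBJ01-05 (1.20 ± 0.93), TCRBV20-01 with TCRBJ02-05 (1.08 ± 0.50) and TCRBV15-01 with TCRBJ02-04 (1.05 ± 0.41), with adjusted p of 0.886, 0.542 and 0.277. By template TCRBV31-01 with TCRBJ02-03 turned around in experiment C, where C-S1 lifted it to 6.63% of spleen templates against 0.371% of TIL templates. By template 0 of 250 pairs were called by edgeR and by DESeq2, with 24 at an unadjusted p under 0.05.

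The CDR3 loop, taken as the residues left after 3 were trimmed from each end, differed in few residues. Aspartate, a negatively charged residue, was the only residue of 20 called by unique rearrangement (5%, lower in TILs), at 6.96%, 6.50% and 6.51% of loop residues in TILs and 7.07%, 6.99% and 7.20% in CX3CR1+ cells. The log2 difference was -0.10 ± 0.03 (SE, edgeR adjusted p = 0.0245). DESeq2 did not call it (adjusted p = 0.398), and at equal depth it stood at -0.02 (adjusted p = 0.920). By template 0 of 20 residues were called by edgeR and by DESeq2, with 0 at an unadjusted p under 0.05. Lysine, a positively charged residue, made up 0.181%, 0.465% and 0.145% of loop residues by template in TILs and 0.504%, 0.472% and 0.598% in spleen (adjusted p = 0.763). Isoleucine and phenylalanine also had lower TIL shares in 3 of 3 experiments, with mean log2 ratios of -0.52 and -0.46 and the same adjusted p.

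Mean CDR3 properties differed little, and 3 pairs cannot reach a p below 0.25 in the exact two-sided sign-flip test. Mean loop net charge by template was the property with the most even difference. It was -0.844, -0.6998 and -0.668 in TILs and -0.617, -0.370 and -0.429 in CX3CR1+ cells, lower in TILs each time, with a mean difference of -0.265 ± 0.056 (SD, n = 3, exact p = 0.25, adjusted over 12 properties 0.75). By unique rearrangement the charge was -0.709 ± 0.033 in TILs and -0.714 ± 0.011 in spleen. Mean CDR3 length by unique rearrangement was 13.96 ± 0.02 residues in TILs and 13.92 ± 0.01 in CX3CR1+ cells, longer in TILs each time by 0.033 ± 0.023 (SD, exact p = 0.25, adjusted 0.75). N insertions averaged 3.49 ± 0.07 and 3.49 ± 0.03 bases by unique rearrangement. By template they averaged 3.53, 3.43 and 3.39 in TILs and 3.47, 2.85 and 3.30 in spleen, with the low spleen value in experiment B, where B-S1 has 1 inserted base. Its part in that value was not tested.

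Of 17 CDR3 proteins found in all 6 libraries, 8 had a higher share in TILs in all 3 experiments, 1 had a lower share in all 3, and 8 were mixed. Presence in the shallower TIL libraries was required, which leaves out proteins of low TIL share and tilts these counts toward TILs, so no direction is read from them. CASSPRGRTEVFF stood at 0.204%, 0.468% and 1.02% of TIL templates and 0.0305%, 0.0706% and 0.385% of CX3CR1+ templates, a mean log2 ratio of 2.29 ± 0.77 (SD, n = 3). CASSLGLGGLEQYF stood at 0.831%, 1.78% and 0.391% against 0.0628%, 0.843% and 0.0651%, a mean log2 ratio of 2.47 ± 1.33. The protein lower in all 3 used TCRBJ01-03 in its most abundant rearrangement, shown here because it lies in the J gene called higher in spleen.
TCRBJ01-03 protein, 15 residues: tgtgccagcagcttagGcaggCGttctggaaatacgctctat

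It took 0.0170%, 0.242% and 0.115% of TIL templates and 0.335%, 0.853% and 0.807% of CX3CR1+ templates, a mean log2 ratio of -2.98 ± 1.25 over 29 rearrangements. Across the 304 proteins found in at least 2 experiments with at least 20 templates, 0 were called by edgeR and by DESeq2, and 10 had an unadjusted p under 0.05 (smallest adjusted p = 0.495).

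CDR3 proteins were also shared between experiments within each population. With each library drawn to 5893 templates, 29.9%, 34.3% and 23.3% of TIL templates and 21.7%, 14.8% and 18.4% of CX3CR1+ templates carried a protein found in the same population of another experiment. The TIL values all lay above the CX3CR1+ values. By protein the shares overlapped, at 5.76%, 7.85% and 8.53% in TILs and 7.40%, 8.08% and 7.16% in CX3CR1+ cells. Rearrangements per protein were between 1.04 and 1.06 in all 6 libraries.

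Over the whole V-J table, TILs lay nearer to CX3CR1+ cells than to either CX3CR1lo subset. The Jensen-Shannon distance over V-J pairs, with each library drawn to 1359 unique rearrangements, was 0.287 ± 0.008 (SD, n = 3) to CX3CR1+ cells, 0.306 ± 0.008 to CD27lo CX3CR1lo cells and 0.310 ± 0.009 to CD27hi CX3CR1lo cells. The difference of CX3CR1+ from the mean of the other two was -0.021 ± 0.007, negative in 3 of 3 experiments (exact permutation within experiments, p = 0.037, the smallest that 27 arrangements allow). TILs were 0.298 ± 0.012 from the CX3CR1+ cells of other experiments. By template the distances were 0.487 ± 0.012 within and 0.560 ± 0.048 between experiments.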

How the data were processed

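Genomic DNA was assayed with ImmunoSEQ at survey level. The deposited counts are the authors' estimates of templates per rearrangement, and the deposited fraction of each library served only as a check. Per the submitters' processing notes the build was mm10, and gene positions are RefSeq's for GRCm38.p6. In-frame rearrangements were kept. Rearrangements without a named V gene (0 to 9 in the 6 libraries compared) or J gene (1 to 23) left the tests that use that gene. In experiment C those without a J gene included C-T2 and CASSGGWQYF, at 4.16% and 3.05% of TIL templates. Their CX3CR1+ shares were 3.03% and 0%. Replicates were 3 experiments, each a pool of mice.

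Gene, pair and residue counts were fitted with edgeR 4.0.16 (quasi-likelihood, library-size scaling, at least 10 rearrangements per feature, Benjamini-Hochberg over each table), with experiment as a replicate block, since both populations came from the same pooled mice. V-J deviations of TILs and CX3CR1+ cells correlated within each experiment (r = 0.25, 0.45 and 0.45 by template). Scripts were tested on simulated counts. Alternatives were DESeq2 1.42.0, TMM, no block, each experiment left out, equal depth (20 draws), other minimums and clonotypes, and out-of-frame rearrangements. The settings added after seeing the data left out near-identical rearrangements or the largest clone of each library. Named V and J genes were all those called, else the 5 V and 3 J genes with the largest mean log2 ratio of 1 sign in 3 of 3 experiments, with 5 V-J pairs per direction and 3 residues by the same rule. Named clones were, per experiment, the 4 with the highest share called on each side and the 2 highest in both. Members and lists were chosen with earlier results of these data known.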

Additional observations from a re-analysis of the deposited data

How the results depend on the processing

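Each experiment was 1 pool per population, so 3 pairs limit every test, and the TIL libraries were the shallower side. Of the results tried under other settings, 208 values were classed as the same, 26 as weaker, 31 as moved and 9 as reversed. A single called feature was classed as the same when it kept its direction and its call. A number of calls was classed as the same when it stayed similar, even where a member lost its call. The CDR3 means had no call to keep. The values classed as weaker include the V-J distance with an experiment left out, where a p under 0.05 could not be reached. The cause of the changes was not tested.

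Without the replicate block, 0 J genes were called by template instead of 3, and the TCRBV19-01 TCRBJ02-01 call by unique rearrangement held (adjusted p = 1.05e-07). TMM and DESeq2 each called 5 J genes by template, 4 of them higher in TILs. The median over features moved under TMM by 0.42 for J genes, 0.17 for V genes, 0.43 for V-J pairs (all by template) and -0.56 for shared proteins. DESeq2 called 0 residues by unique rearrangement. Out-of-frame rearrangements gave 1 V gene and 0 V-J pairs by unique rearrangement, and 0 J genes and 1 V-J pair by template, and TCRBJ02-01 reversed to -0.22. The TCRBV19-01 TCRBJ02-01 difference was 0.91 there, without a call (adjusted p = 0.199). At equal depth (medians over draws), 2 J genes (TCRBJ01-03 in 12 and TCRBJ01-06 in 10 of 20 draws), 0 V-J pairs and 0 residues were called by unique rearrangement, net charge by unique rearrangement reversed to -0.0439, and spleen-higher clones numbered 81 in A and 115 in B. TIL-higher clones then numbered 53 in A and 107 in B. With at least 2 templates per rearrangement, 1 V gene, 1 J gene, 2 V-J pairs and 0 residues were called, net charge reversed to -0.0447 and the percent without N insertion to -0.506. Residue calls were 0 with CDR3, V and J as the clonotype and 0 with near-identical rearrangements left out, a setting chosen after seeing the data. TIL-higher clones in A numbered 114 at a minimum of 5 templates and 40 at 20.

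With each experiment left out in turn, the number called ran from 0 to 1 for V genes by unique rearrangement, 1 to 2 for J genes by template, 0 to 1 for V-J pairs by unique rearrangement and 0 to 1 by template, 0 to 0 for residues by unique rearrangement and 0 to 1 by template. Differences ran from -0.0328 to 0.0219 for N insertions, -0.241 to 0.588 for the percent without N insertion and -0.0163 to 0.0261 for net charge, all by unique rearrangement, from -0.0839 to 0.145 for length and -0.782 to 0.528 for glycine by template, and from -0.0250 to -0.0184 for the V-J distance (exact permutation p = 0.111 each). That is the smallest p that the remaining experiments allow, so it says nothing about lost support.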
